A study of Mus musculus with 16 samples.

Results

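The clustered histone genes encode the core histones H2A, H2B, H3 and H4, which wrap DNA into nucleosomes, and the linker histone H1, which binds the DNA between nucleosomes. They sit in tandem groups named Hist1 to Hist4, and their transcription is classically tied to DNA replication in S phase. Most of their mRNAs are not polyadenylated and end instead after a short stem-loop bound by the stem-loop binding protein, while a subset also yields polyadenylated, sometimes spliced, transcripts in tissues that no longer divide, such as the adult retina. The genes were chosen by name: every entry of the deposited table of all genes whose symbol begins with Hist1h, Hist2h, Hist3h or Hist4h was taken, which gave 65 of 25905 genes. They comprised 6 H1, 18 H2A, 17 H2B, 12 H3 and 12 H4 genes, and 51 of them lay in Hist1 on chromosome 13, 10 in Hist2 on chromosome 3, 3 in Hist3 on chromosome 11 and 1 in Hist4 on chromosome 6.

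The study sequenced RNA from the retinas of right eyes of wild type C57BL/6 mice labelled as 10 weeks old, all male per the study's methods. The methods give that age for the start of the flight, which lasted several weeks, and the eyes were taken after the return to Earth, so the animals were older when sampled. A flight group of 8 libraries came from animals kept aboard the International Space Station and returned alive, and a ground control group of 8 libraries came from animals in the same type of housing on Earth, each library being 1 retina. Stranded libraries were made from 100 ng of total RNA by removal of ribosomal RNA rather than by selection of poly(A) tails, and were read as single reads of 75 bases. The deposited columns of counts carried laboratory codes that matched no sample label, so no library could be assigned to a group, and the histone genes in flight against ground control were not analysed here. The level given for each gene is the deposited mean of the normalized count over all libraries of both groups, a pooled value without a spread, a number of replicates or a test, and its depth is unknown. In retina sampled in bulk, fewer cells of a type and less RNA per cell cannot be told apart.

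The stem-loop that ends most of these mRNAs was looked for in the annotated transcripts, since no mRNA end was measured. Each gene was matched to its GENCODE transcript, and the transcript was searched past the stop codon for the 16-base histone stem-loop, read as GGNNCN, then TTTN, then AGNNCC, in which N is any base. The letters were found in 41 of the 65 genes. Searched at any position, 283 of all 141767 reference transcripts held them, or 0.200%, with histone transcripts included. Counted by gene, 143 symbols of the deposited table had the letters in a reference transcript. Of these, 102 were not among the 65 genes. The sites below are those of the 2 most abundant genes of H4, the most abundant of H1, H2A and H3, and 2 H2B genes, with 5 bases of context on each side, the stem-loop in capitals and T for U, all from GENCODE on GRCm38.
Hist1h1e: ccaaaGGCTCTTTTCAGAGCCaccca
Hist3h2a: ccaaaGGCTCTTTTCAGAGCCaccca
Hist3h2ba: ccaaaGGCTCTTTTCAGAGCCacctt
Hist1h2bb: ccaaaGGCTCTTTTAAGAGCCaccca
Hist1h3e: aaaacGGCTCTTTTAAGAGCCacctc
Hist1h4d: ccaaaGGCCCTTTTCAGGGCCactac
Hist1h4c: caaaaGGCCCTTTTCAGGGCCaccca

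Across the 41 genes there were 6 versions of the stem-loop. The version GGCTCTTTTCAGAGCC was the commonest, with 24 genes, of which 3 were H1, 9 H2A, 7 H2B and 5 H3, and none were H4. The H4 genes instead carried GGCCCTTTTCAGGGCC in 6 genes, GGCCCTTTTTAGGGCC in 2 and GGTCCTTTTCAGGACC in 2, and no gene of another class had any of these 3 versions. Hist1h2bb shared its loop variant with 1 other H2B gene, 1 H1 gene and 3 H3 genes. Of the 24 genes without a match, 15 had fewer than 30 annotated bases past the coding part, too few to hold the site. Hist1h4a, Hist1h2bp, Hist1h3g, Hist1h1a and Hist2h3b had between 40 and 157 bases there without the letters, and Hist1h2al and Hist3h2bb-ps had no coding part in the reference. Hist1h2bc and Hist2h2be had the longest stretches without the letters, 745 and 2195 bases past the coding part of the transcript searched. These calls for single histone genes rest on 1 transcript per gene, so letters in an intron or in another transcript of the gene would be missed. This bears on Hist1h2bc, whose matched transcript had 2 exons. Among 14 replication-independent histone genes, H2afx, the variant phosphorylated at DNA breaks, was the only 1 with the letters in a reference transcript.

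Hist1h2bb differed more from Hist1h2bc than did any of the 9 other Hist1 H2B genes of the same coding length. The first 89 coding bases are shown, because they span every 75-base stretch of Hist1h2bc's coding sequence that occurs in the reference transcripts of no other gene, and capitals mark the bases that differ from Hist1h2bc.
Hist1h2bc: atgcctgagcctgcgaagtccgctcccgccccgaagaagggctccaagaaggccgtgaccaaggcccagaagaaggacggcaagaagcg
Hist1h2bj: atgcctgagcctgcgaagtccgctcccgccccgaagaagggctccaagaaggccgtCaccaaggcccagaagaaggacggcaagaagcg
Hist1h2bg: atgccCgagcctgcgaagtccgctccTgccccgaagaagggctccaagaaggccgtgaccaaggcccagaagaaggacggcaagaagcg
Hist1h2bb: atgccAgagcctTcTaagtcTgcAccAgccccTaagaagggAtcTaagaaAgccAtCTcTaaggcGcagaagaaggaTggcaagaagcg
Hist3h2ba: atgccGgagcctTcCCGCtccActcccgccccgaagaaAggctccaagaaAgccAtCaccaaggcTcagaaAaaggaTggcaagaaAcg
Hist2h2be: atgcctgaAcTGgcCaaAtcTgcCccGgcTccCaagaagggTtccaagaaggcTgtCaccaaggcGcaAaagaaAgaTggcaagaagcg

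Over the whole coding sequence of 378 bases, Hist1h2bj differed from Hist1h2bc at 4 bases and Hist1h2bg at 5. Hist1h2bb differed at 20 bases, 16 of them within the stretch shown. The most distant H2B genes were those outside Hist1, with 38 differing bases in Hist3h2ba, 42 in Hist2h2bb and 48 in Hist2h2be. There were 14 H2B genes with a coding sequence of this length, Hist1h2bc included. Identity of the others to Hist1h2bc ran from 87.3% to 98.9%. Hist1h2bc also stood out in gene structure: it was 1 of 3 genes with 2 exons in the reference, beside Hist1h2be and Hist1h2bp, while the other 62 had 1 exon.

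As a family the histone genes were present in retina over a wide range of levels. The mean normalized count was above 1 in 59 of 65 genes, above 10 in 47, above 100 in 16 and above 1000 in 5. Of all 25905 genes, 62.02% were above 1, 47.8% above 10 and 30.3% above 100. The median histone gene had a mean normalized count of 33.3, against 6.98 over all genes. Together the 65 genes held 0.163% of the summed mean normalized counts of the table. The 5 most abundant genes held 60.5% of the family's summed mean normalized count and the 10 most abundant 79.4%.

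Levels were compared between genes as the mean normalized count per kb of coding sequence, since coding lengths differ between classes. A coding length was available for 63 genes, all but Hist1h2al and Hist3h2bb-ps. The median of the 63 was 81.5 per kb, which lay at the 55.6 percentile of 16253 genes with a coding length and a mean above 0. In the deposited table, genes listed with a single transcript accession and genes with several differed sharply in this quantity, with medians of 83.2 and 2.94 per kb. Among the histone genes 64 of 65 had a single accession, and against the 13832 such genes their median was at the 49.6 percentile. Whether the accession count sets these levels was not tested.

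The 5 classes contributed unequally. Of the summed level per kb, H4 held 45.2%, H2A 24.8%, H2B 16.98%, H1 8.95% and H3 4.11%. On the mean normalized count without division by length, H4 held 37.0% and H1, whose coding sequences are the longest of the 5 classes, 15.4%, but the order of the classes was the same. The class medians ran from 290.4 per kb in H4 and 148.3 in H1 to 64.5 in H3, 60.8 in H2A and 33.9 in H2B. H4 differed from the other classes at the low end: its lowest gene stood at 62.8 per kb, whereas every other class reached below 2 per kb.

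**Figure D1:**
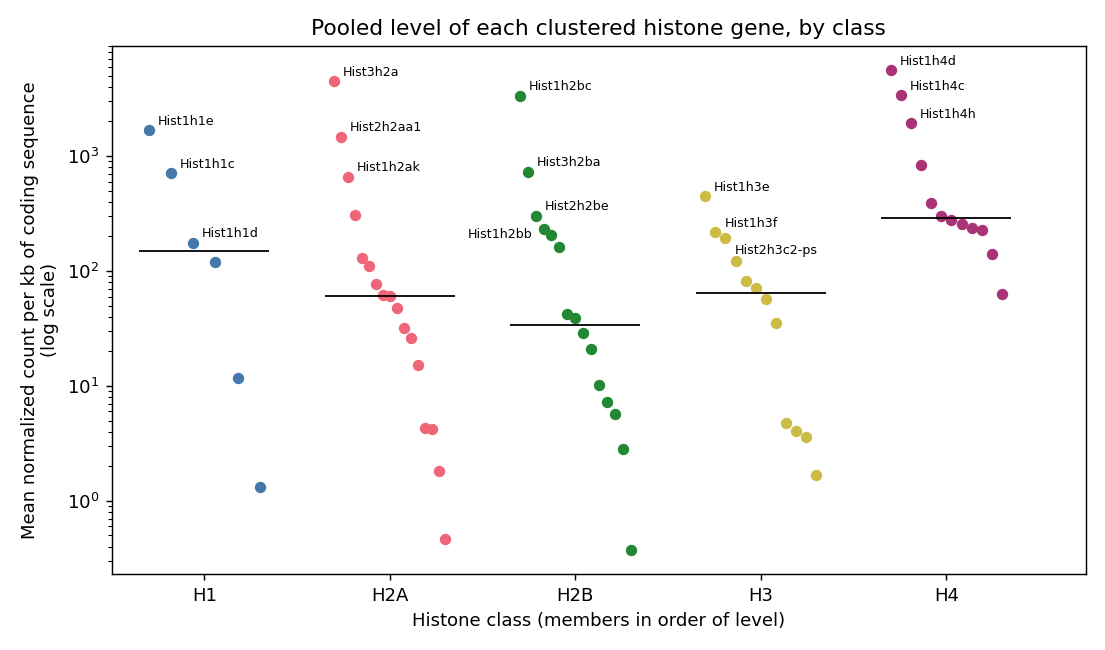
Each point is 1 histone gene, grouped by class along the horizontal axis and placed in order of level, against its pooled mean normalized count per kb of coding sequence on a log axis; horizontal lines mark class medians. Hist1h2bc at 3339 per kb heads the H2B class, 4.56-fold above the next gene, while the H3 genes step down from 448.3 per kb without such a gap. Hist1h2be, listed at 0, cannot be drawn on the log axis but is in the H2B median, and 2 genes without a coding length are left out.

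**Figure D2:**
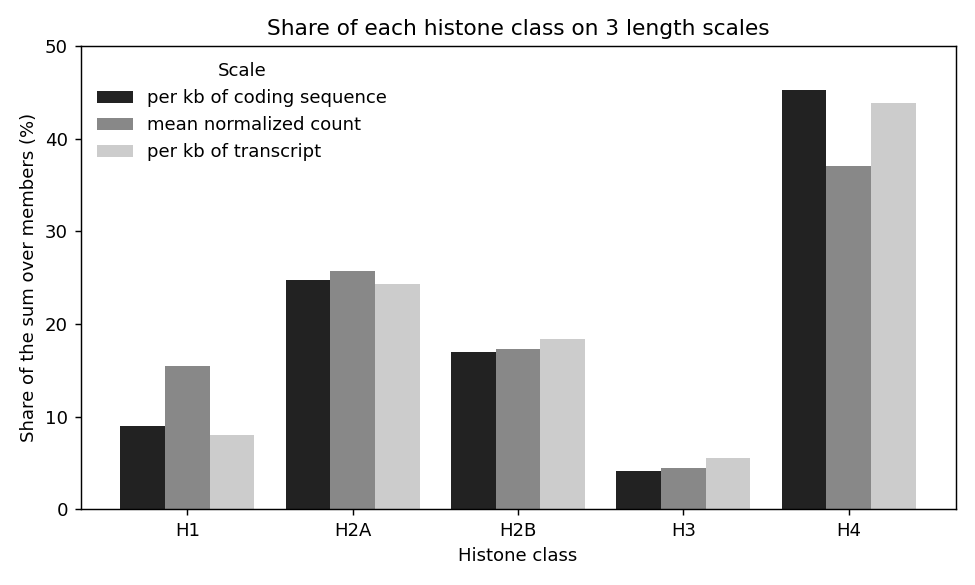
Bars give the share of each histone class, in percent, of the sum over all clustered histone genes on 3 scales: per kb of coding sequence, the mean normalized count as deposited, and per kb of transcript. H4 is the tallest and H3 the shortest on each scale, and the share of H4 goes from 45.2% per kb of coding sequence to 37.0% of the count while that of H1 goes from 8.95% to 15.4%.

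Among the linker histones, Hist1h1e was the most abundant, with a mean normalized count of 1109 and a level of 1688 per kb. Hist1h1c followed at 706.5 per kb and Hist1h1d at 176.3 per kb. These 3 are somatic linker histones found in most tissues. Hist1h1e alone made up 62.4% of the H1 level per kb. Hist1h1t, the testis-specific linker histone, was near the floor at a mean normalized count of 0.831.

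Among the H2A genes, Hist3h2a had the highest mean normalized count of the whole family, 1745, and a level of 4473 per kb. Hist2h2aa1 stood at 1473 per kb and Hist1h2ak at 659.0 per kb. Hist3h2a made up 59.7% of the H2A level. In the reference, the annotated span of Hist3h2a overlaps that of Trim17 on the same strand, and the stranded protocol does not separate reads of such a pair. The order of Hist3h2a in its class depended on length: per kb of its whole transcript of 2146 bases it stood at 813.0, below Hist2h2aa1 at 980.2.

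Among the H2B genes, Hist1h2bc had a mean normalized count of 1262 and a level of 3339 per kb, the 4th highest level per kb among all 63 genes and at the 98.8 percentile of genes with a coding length. It made up 65.1% of the H2B level per kb. The next gene, Hist3h2ba, stood at 732.0 per kb, so Hist1h2bc was 4.56-fold above it. Hist2h2be followed at 303.4 per kb. Per kb of whole transcript, Hist1h2bc stood at 1092, Hist3h2ba at 450.6 and Hist2h2be at 43.8.

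Hist1h2bb did not share that position. Its mean normalized count was 88.1 and its level 233.2 per kb, at the 74.8 percentile, which ranked it 4th among H2B genes. It held 4.54% of the H2B level per kb, and Hist1h2bc was 14.3-fold above it. Hist2h2bb at 205.8 per kb and Hist1h2bg at 162.1 per kb lay just beneath. The order depended on length: per kb of whole transcript Hist2h2bb at 204.2 lay above Hist1h2bb at 173.5, and Hist1h2bg stood at 99.1. Whether Hist1h2bb differs from these neighbours beyond the spread of the libraries was not examined here.

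The low end of the H2B class held Hist1h2ba, a testis-enriched H2B, at a mean normalized count of 0.142, the lowest of the family above 0. Hist1h2be was listed at 0. It was the 1 histone gene with 2 transcript accessions in the deposited count table, and its annotated span overlaps that of Hist1h1e on the same strand. The part of either in the listed 0 was not tested.

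The H3 class had no dominant gene. Hist1h3e led with a mean normalized count of 182.9 and a level of 448.3 per kb, and made up 36.1% of the class. Hist1h3f stood at 216.6 per kb and Hist2h3c2-ps, annotated as a pseudogene in its symbol, at 194.5 per kb. The reference gene matched to Hist2h3c2-ps is named Hist2h3c2 and has a coding sequence of 408 bases. The lowest were Hist1h3g, Hist1h3c and Hist1h3b at 4.07, 3.59 and 1.68 per kb.

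The H4 class held 3 of the 5 highest levels per kb in the family. Hist1h4d stood at 5617 per kb, Hist1h4c at 3376 and Hist1h4h at 1940. All 12 H4 genes had a mean normalized count above 10. Hist1h4d made up 41.1% of the class, and without it the remaining H4 genes still held 32.7% of the family's level per kb, more than any other class without its leading gene.

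Near-identical sequence limits how far single histone genes can be told apart by reads of 75 bases. For each gene, every 75-base window of the coding sequence was looked up on both strands of all reference transcripts, leaving out genes that overlap the same locus. The median histone gene had 33.6% of its windows in no gene elsewhere, 8 genes had every window to themselves and 8 had none. By class the median was 91.2% in H1, 37.4% in H4, 35.2% in H2B, 27.5% in H2A and 21.9% in H3. The 20 genes with at least 50% of windows unique had a median level of 191.0 per kb, and the 43 genes below that share 61.4 per kb. A mean normalized count above 100 was reached by 9 of the 20 and by 7 of the 43. The part of shared sequence in these levels was not tested, since how the deposited counts treated reads with several matches is not given in the sources used here.

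Several abundant genes ran against the direction of those medians. Hist1h4c, with 46.4% of windows unique, stood at 3376 per kb, and Hist1h4h, with 30.6%, at 1940 per kb. Hist2h2aa1 had no window to itself and stood at 1473 per kb. Hist1h2bc had 4.93% of its windows unique, 15 of 304, yet the highest H2B level. Of its windows, 231 also occurred in Hist1h2bg, whose level was 162.1 per kb. Over the coding sequence, the counts for Hist1h2bc and its near copies are therefore uncertain individually. The 745 bases of the Hist1h2bc transcript past its coding part were not looked up, and any reads counted over them add to its count. Hist1h2bb had 47.7% of windows unique and shared the most, 159, with Hist1h2bk. Hist2h2be, with 100%, rested on sequence of its own. Hist3h2ba had 75.3% of windows unique, and its 75 shared windows occurred in Hist3h2bb-ps.

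**Figure D3:**
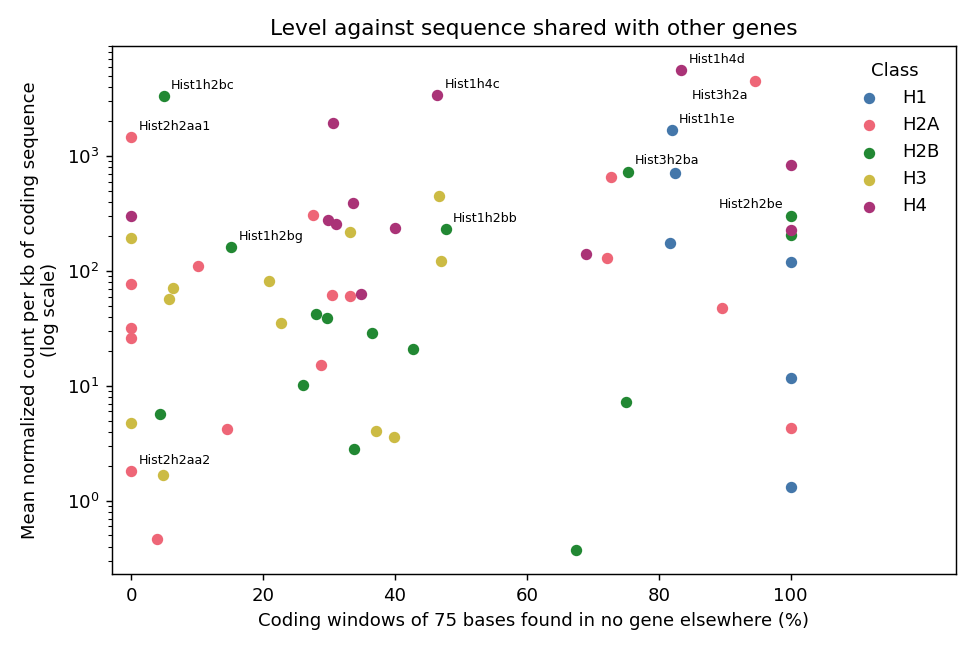
Each point is 1 histone gene: the horizontal axis is the share of its 75-base coding windows found in no gene elsewhere, in percent, and the vertical axis its mean normalized count per kb of coding sequence on a log scale, coloured by class. Hist1h2bc lies at 4.93% and 3339 per kb, at the upper left, while Hist3h2a and Hist1h4d lie high with most windows unique. Genes without a coding length and the gene listed at 0 are not drawn.

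Exact copies showed the same limit most plainly. Hist2h2aa1 and Hist2h2aa2 have identical coding sequences, and their mean normalized counts were listed as 574.4 and 0.705. Hist2h3c2-ps and Hist2h3c1 are likewise identical, and were listed at 79.4 and 1.93. The coding sequence cannot assign a read to 1 copy of such a pair, so neither level can be tied to its copy from this sequence.

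Many H2A and H2B genes are arranged head to head, with a shared stretch of DNA between 2 start sites that point away from each other. With starts at most 500 bases apart, 11 such pairs were found, and each joined an H2A with an H2B gene. In 5 of the 10 pairs with a coding length for both genes, 1 gene was over 10-fold above its partner per kb, and in the other 5 the ratio was under 3. Of the 5 unequal pairs, 2 rest on mean normalized counts near the floor: 0.179 for Hist1h2ah against 2.17 for Hist1h2bk, and 0.142 for Hist1h2ba against 1.67 for Hist1h2aa. Hist1h2bc belongs to one of the unequal pairs: it stood at 3339 per kb and Hist1h2ac, whose start is 251 bases away, at 309.6, a ratio of 10.8. The widest ratio, 15.6, was that of Hist1h2ak at 659.0 and Hist1h2bn at 42.3 per kb, in which the H2A gene was the higher. Hist1h2ag and Hist1h2bj were nearly equal, at 26.3 and 28.9 per kb. Hist1h2bb was in no such pair. Hist3h2a faces Hist3h2bb-ps across 173 bases, with mean normalized counts of 1745 and 36.6.

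**Figure D4:**
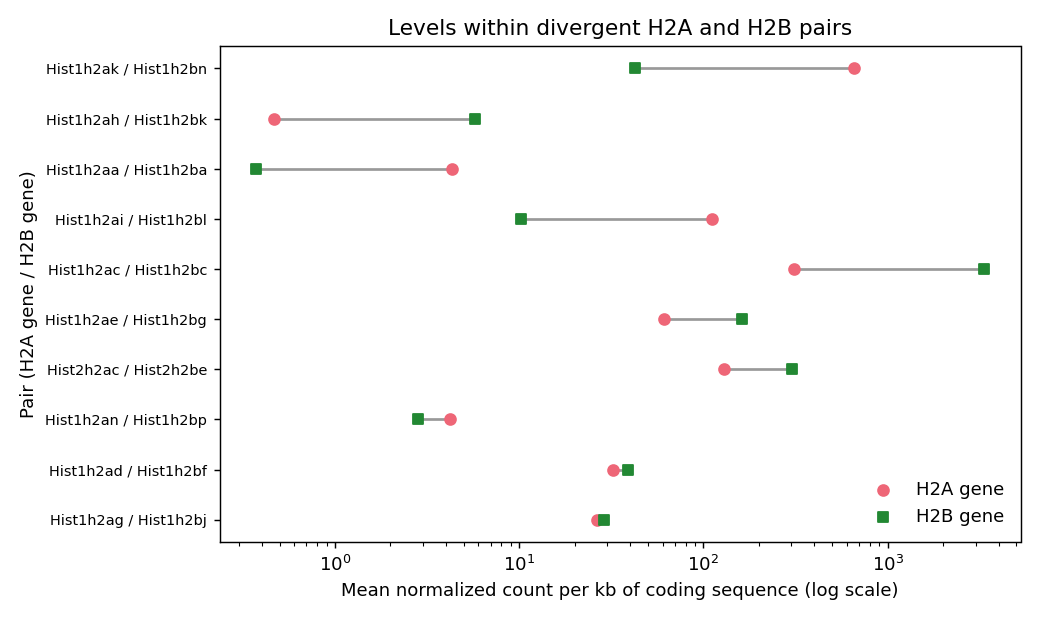
Each row is 1 head-to-head pair, with the H2A gene as a circle and the H2B gene as a square on a log axis of mean normalized count per kb of coding sequence, joined by a line. The upper 5 pairs are over 10-fold apart, with the H2A gene higher in 3 and the H2B gene higher in 2, and the lower 5 pairs are under 3-fold apart.

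Promoter windows of 250 bases before and 50 bases after the start, from RefSeq on GRCm38.p6, were available for 58 of the 65 genes. The others were Hist1h2al, Hist1h2bc, Hist1h3a, Hist1h3f, Hist2h2be, Hist2h4 and Hist3h2bb-ps. Each window was searched on both strands. The TATA box was read as the letters TATAAA. The CCAAT box was read as its own name. The octamer, which is bound by the factor Oct-1, was read as ATTTGCAT. The H1 box was read as AAACACA. No 2 different motifs overlapped in these windows. A linker histone, an H2B gene and the most abundant H4 gene are shown, since they carry different sets of these letters. Capitals mark every match on either strand.
Hist1h1e, chr13:23622509-23622808, minus strand: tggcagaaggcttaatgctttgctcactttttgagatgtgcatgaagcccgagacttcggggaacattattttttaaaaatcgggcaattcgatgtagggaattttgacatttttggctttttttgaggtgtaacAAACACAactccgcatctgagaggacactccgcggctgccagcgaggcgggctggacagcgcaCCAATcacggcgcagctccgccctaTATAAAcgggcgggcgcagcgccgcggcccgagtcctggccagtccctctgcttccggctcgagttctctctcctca
Hist1h2bb, chr13:23746484-23746783, plus strand: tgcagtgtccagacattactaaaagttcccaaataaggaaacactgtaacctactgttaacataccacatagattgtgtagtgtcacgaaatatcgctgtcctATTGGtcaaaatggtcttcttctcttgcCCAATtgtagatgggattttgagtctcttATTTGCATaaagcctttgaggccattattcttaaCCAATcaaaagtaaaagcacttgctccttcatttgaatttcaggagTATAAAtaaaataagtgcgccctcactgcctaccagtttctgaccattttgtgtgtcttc
Hist1h4d, chr13:23581318-23581617, plus strand: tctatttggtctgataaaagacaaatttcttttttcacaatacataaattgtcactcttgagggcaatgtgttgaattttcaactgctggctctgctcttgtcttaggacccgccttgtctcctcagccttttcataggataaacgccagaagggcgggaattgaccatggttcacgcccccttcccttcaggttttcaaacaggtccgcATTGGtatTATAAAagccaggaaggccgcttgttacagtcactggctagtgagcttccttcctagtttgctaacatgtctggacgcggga

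The motif content differed by class. A gene was counted when any of its windows held the letters, and the background was the same count over all 27025 genes with a window. The CCAAT letters were in 6 of 6 H1, 17 of 17 H2A, 14 of 14 H2B and 10 of 10 H3 genes but in 3 of 11 H4 genes, against 41.1% of all genes. The octamer letters were in 7 of 17 H2A and 7 of 14 H2B genes and in none of the other classes, against 1.97% of all genes. The H1 box letters were in 5 of 6 H1 genes, 2 of 17 H2A and 2 of 14 H2B, against 8.22% of all genes. Windows of head-to-head genes overlap, so 1 site can be counted for both an H2A and an H2B gene. Such shared octamers were those of Hist1h2ae with Hist1h2bg, Hist1h2ah with Hist1h2bk, and Hist1h2aa with Hist1h2ba. The last pair also shared its H1 box. TATAAA was in 34 of the 58 histone genes, or 58.6%, against 15.7% of all genes. Hist1h2bb held the octamer, 3 CCAAT matches and a TATA box, and Hist1h4d held 1 CCAAT match beside its TATA box. These are matches of letters, not measured binding.

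Of the genes with the stem-loop, some had a transcript annotated to continue well beyond it. The 22 genes whose transcript ran more than 100 bases past the stem-loop had a median level of 222.7 per kb, and 10 of them had a mean normalized count above 100. The 19 genes whose transcript ended within 100 bases had a median of 61.4 per kb, and 3 were above 100. Both sets spanned the range, from 0 to 5617 per kb in the first and from 1.68 to 1940 per kb in the second. Hist1h4d, Hist3h2a, Hist1h4c and Hist1h1e were all in the longer set, with 770, 1643, 454 and 1153 annotated bases past the stem-loop. Hist1h2bb was in the shorter set, with 23 bases. Where the authors' annotation included such extensions, reads over them add to the count without adding to the coding length. That annotation was not examined here, so these levels per kb of coding sequence are not directly comparable. Per kb of whole transcript, Hist1h2bc held 48.2% of H2B rather than 65.1%.

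The genes that package chromatin outside S phase had a higher median level than the clustered genes. The 13 of 14 replication-independent histones with a coding length had a median of 377.0 per kb, led by H3f3b at 13516 and H3f3a at 6939 per kb, which encode the replacement histone H3.3, and by H2afv at 1801 per kb. H2afy was listed at 0, and it had 4 accessions in the count table. For H3 the contrast was steep: all 12 clustered H3 genes together summed to 1242 per kb, below H3f3b or H3f3a alone. This and the other list comparisons were made per kb of coding sequence only. Any reads counted outside the coding sequence add to these levels, and the lists were not compared per kb of whole transcript. H2afx, which carries the stem-loop letters, stood at 377.0 per kb.

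Factors that act on histone mRNA and histone proteins were measured beside them. The 15 genes of histone mRNA 3-prime end processing had a median of 210.8 per kb, led by Ncbp2, a cap-binding subunit, at 937.6, the cleavage factor paralog Cstf2t at 459.3 and the cleavage factor Cpsf2 at 231.2 per kb. Slbp, which encodes the stem-loop binding protein, stood at 210.2 per kb. The 21 histone chaperones had a median of 162.1 per kb and were led by Nap1l5 at 4403, Rbbp4 at 668.5 and Nap1l4 at 612.3 per kb. The 9 genes of the H2B ubiquitin ligase and its deubiquitinases had a median of 206.9 per kb, with Ube2b highest at 1184, Eny2 at 1014 and Usp22 at 802.8 per kb. Over the 7 of these 9 genes with 1 accession the median was 425.2 per kb, and the other 2, Rnf20 and Atxn7l3, stood at 0.574 and 0.385 per kb. With the same restriction the medians were 216.9 per kb for 3-prime end processing, 193.3 for the chaperones and 420.4 for the replication-independent histones.

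S phase genes were the lowest of these lists. The 24 genes had a median of 7.31 per kb, 12 were above a mean normalized count of 10 and 6 above 100. Pcna, the DNA polymerase clamp, was highest at 854.4 per kb, followed by Ccna2 at 141.2 and Rrm1 at 132.1 per kb. Mki67 and Top2a, which mark dividing cells, had mean normalized counts of 3.36 and 1.56. Restricted to the 19 S phase genes with 1 accession, the median was 11.3 per kb, still under the 81.5 per kb of the clustered histones. No library-level spread stands behind this order.

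**Figure D5:**
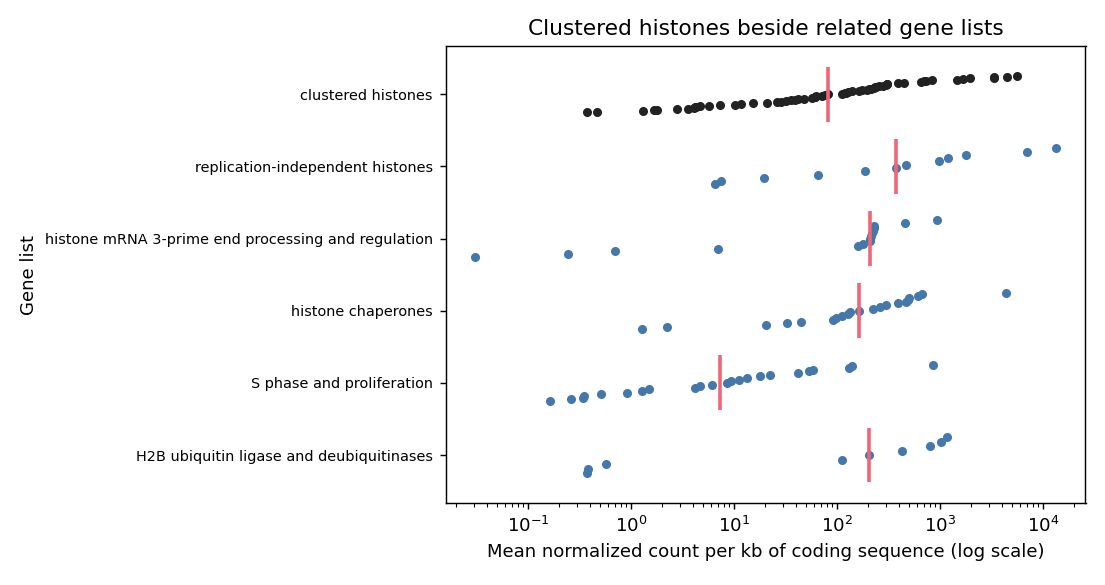
Each point is 1 gene on a log axis of mean normalized count per kb of coding sequence, one row per gene list, with the median over listed genes with a coding length as a vertical bar. The clustered histones centre at 81.5 per kb, above the S phase list at 7.31 and below the replication-independent histones at 377.0. Genes at 0 are not drawn but count in the medians.

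The labelled tissue matched its markers. Of the rod genes, Gnat1, the rod transducin subunit, stood at 147121 per kb, while Nrl, with 2 accessions, stood at 125.1. The rod list had a median of 5208 per kb. Cone genes had a median of 1314 and bipolar cell genes of 1346 per kb, and of the Müller glia genes Glul stood at 15599 per kb while Rlbp1, with 2 accessions, stood at 1.46. Other tissues of the eye were also measured: all 4 lens genes had a mean normalized count above 10, with Cryaa at 1527 per kb. The pigment epithelium list had a median of 104.8 per kb. Microglia, a cell type of the retina itself, had a list median of 30.3 per kb. Of the erythroid genes, Hbb-b1 stood at 24.2 per kb and Hba-a1 at 0.500, and Alas2, with 2 accessions, was listed at 0. The part of non-retinal or dividing cells in the histone levels was not tested.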

How the data were processed

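The authors trimmed single reads with Trimmomatic, mapped them to an earlier NCBI build of the mouse genome with TopHat2 and counted them per transcript with HTSeq. They normalized counts by the size factors of DESeq2 1.22.2 in R 3.5.1. The one measurement used is the mean normalized count, a signal value that the authors deposited per gene, averaged over all 16 libraries. The deposited tables also hold the authors' log2 fold change, its standard error, test statistic and p-values, which were not used. In all, 32 per-sample columns (16 in each of the tables read) carry codes that match no label and were not used, so the planned edgeR quasi-likelihood test was not run. Further tables restricted to the authors' selected genes were not used.

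Genes were matched to GENCODE M21 (GRCm38), 63 of 65 histone genes by RefSeq accession and 2 by symbol. The longest coding sequence gave the length, without the stop codon, and 79.2% of all genes had one. Windows, stem-loops and motifs were searched with Python 3.11.15 and pandas 2.3.3, and the searches were tested on simulated sequences. The members and gene lists were chosen with earlier results of these data known. Genes named by rule were Hist1h2bc, Hist1h2bb, the 3 highest of each class, the highest and lowest histone gene above 0 and the 3 highest of each list. The others were named after their values were seen. Alternatives covered the floor, the length scale, the name pattern and the genes ranked against.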

Additional observations from a re-analysis of the deposited data

How the results depend on the processing

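No paired analysis was possible because the columns of the deposited tables carry no sample or replicate number. For the same reason other ways of fitting flight against ground control (other size factors, DESeq2, no filter, a replicate block, a threshold of 0.05 and leaving out each library) were not run. A floor of 100 in place of 1 left 16 of 59 genes. On the mean normalized count as deposited the shares were H1 15.4%, H2A 25.7%, H2B 17.3%, H3 4.44% and H4 37.0%, and Hist1h2bc held 63.8% of H2B. With the strict name pattern, which drops 2 pseudogene symbols, they were H1 9.004%, H2A 24.9%, H2B 17.1%, H3 3.49% and H4 45.5%. Without the most abundant gene of each class in turn, that class held 3.56% (H1), 11.7% (H2A), 6.67% (H2B), 2.66% (H3) and 32.7% (H4). Per kb of transcript, chosen after seeing the data, the shares were 8.04%, 24.3%, 18.3%, 5.48% and 43.9%, and Hist1h2bc held 48.2% of H2B. The class order was the same on the 3 length scales. Ranked among all genes including those at 0, the median histone gene was at the 64.8 percentile, Hist1h2bc at 99.1 and Hist1h2bb at 80.0. Among genes with 1 accession, also chosen after seeing the data, they were at 49.6, 98.6 and 71.1. The pooled means carry no error, and the spread of these shares over libraries was not analysed here.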
